A study of Mus musculus with 3 samples.

Results

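The genes described here are 35 genes of glycolysis and of the response to low oxygen, out of 32285 genes in the deposited tables. They were chosen by name: 22 belong to glycolysis (2 glucose carriers, 14 enzymes, 2 PFKFB enzymes, 2 lactate dehydrogenases and 2 lactate carriers), 11 are known targets of the hypoxia response, and Hif1a and Epas1 encode hypoxia-inducible factor subunits. Their symbols matched 36 rows, since Aldoa had a second identifier with 1 UMI (a counted RNA molecule) in all sums. The study placed frozen uterine sections of mated female mice, kept on chow with female littermates to 8 weeks of age and dissected on day 7.5 of pregnancy, on 10x Visium slides. Each barcoded spot of such a slide captures RNA from a patch of tissue and mostly from several cells, often of different types. The labels give no strain, genotype, treatment or contrast, so the 3 libraries form 1 group: replicate 1-2, a single matrix for sections of 2 biological replicates, counted as 1 sample, replicate 3 and replicate 4.

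Glycolysis breaks glucose down to pyruvate, which lactate dehydrogenase turns into lactate where pyruvate does not enter the mitochondria. Cells short of oxygen stabilise the alpha subunits HIF-1alpha (Hif1a) and HIF-2alpha (Epas1), which pair with ARNT and bind short DNA motifs beside genes for glucose uptake, glycolysis, vessel tone and mitochondrial turnover. In the uterus of early pregnancy the stroma around the implanted embryo turns into decidua, a glycolytic tissue that supports the conceptus before the placenta carries blood.

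Zones of the tissue were found from the data, since no annotation of spots was used. The 3939 spots with at least 1000 UMIs, of 3978 deposited, were clustered on a random set of genes that held no member and no marker gene. This gave 15 regions, which are named here by number and by their 3 leading clustering genes, and whose counts were summed per library. The libraries held 16915926, 27279702 and 29953072 UMIs (replicates 1-2, 3 and 4), with medians of 8038, 26543 and 28286 UMIs per spot, so replicate 1-2 carried the largest counting error. The 43 sums held 117657 to 3978846 UMIs and 0.399% to 2.56% mitochondrial UMIs. The libraries shared 559 spot barcodes between all 3 and 1163 between at least 2. Levels are given as counts per 1000000 (CPM) scaled by edgeR's TMM factors, and they are not compared between genes. A difference sets the log2 level in a region against the average of the remaining regions, with its standard error (SE), and a call needed an adjusted p under 0.05 (edgeR quasi-likelihood F test, Benjamini-Hochberg) and a log2 difference of at least 1 in size. Regions 14 and 15 rest on 2 libraries each. Region 14 had 41 and 26 spots in replicates 3 and 4 and 4 spots, not summed, in replicate 1-2. Region 15 had 25 spots in replicate 1-2, at a median of 3795 UMIs, 27 in replicate 4 and 0 in replicate 3.

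Marker genes that are not members place the regions these results turn on. Region 10 (Gm2694, Kng2, Cbln1) had the highest mean log2 difference of the decidual marker list (1.95), with 11 of 18 fitted markers higher and 2 lower. There 3 natural killer (NK) markers, Ncr1, Klrk1 and Tbx21, were at 0. Region 10 was not the only decidual zone. Region 9 was close on that list (mean 1.85), with 13 of 18 higher and 0 lower, and region 6 had 10 of 18 higher and 0 lower. Region 5 (Trbc1, Vipr1, AW112010) stood highest for the NK list, with 17 of 18 higher. Region 13 (Plet1, Prl7a1, Prl5a1) stood highest for the trophoblast list, with 15 of 16 higher, and had 10 of 12 yolk sac and 7 of 8 embryo markers higher too. Region 15 (Lin28a, Sall4, Bex2) stood highest for the embryo list, with 8 of 8 higher (948 to 1130 unscaled CPM summed over the list). It also had 11 of 12 yolk sac markers (3417 to 4745 CPM), 13 of 16 trophoblast markers (1965 to 2397 CPM) and 10 of 12 proliferation markers (1810 to 1887 CPM) higher, and their part in its results was not tested. Region 12 (Hmcn2, Fbxl22, Asb2) had all 12 smooth muscle markers higher, as did region 3, and region 1 had 11 of 12 higher. Region 1 also had 18 of 18 NK, 11 of 12 stromal and 9 of 11 macrophage markers higher. In region 12, 10 of 12 stromal, 7 of 11 macrophage and 8 of 18 NK markers were higher too, with 1, 0 and 0 lower. Region 4 (Srd5a1, Mrgprg, Bco1) had 13 of 16 endothelial, 10 of 18 decidual and 10 of 16 trophoblast markers higher. Region 14 (Ptgs2, Wnt7b, Uchl1) had 9 of 12 epithelial and gland markers, 17 of 18 NK markers and 9 of 16 trophoblast markers higher, with Foxa2, Prl2c2 and Psg18 at 0.

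The members differed between the regions, and the 2 groups did not follow the same regions. Car9, which encodes carbonic anhydrase IX, had 34 UMIs in all sums and was not fitted. The other 34 members passed the filter on low counts, and each differed between some regions, as did 92% of the 6506 genes fitted. Glycolysis members were called higher in 51 and lower in 48 of 330 member and region tests, and hypoxia targets in 29 and 33 of 150. Over the 15 comparisons, 11.4% of all tests were called higher and 7.41% lower. Of 167 member calls, 164 had the same sign in every library of the region, and 87 were kept under every alternative processing that gave a value. A spot mixes cells, so more cells of a type and more RNA per cell cannot be told apart in any of these values.

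**Figure D1:**
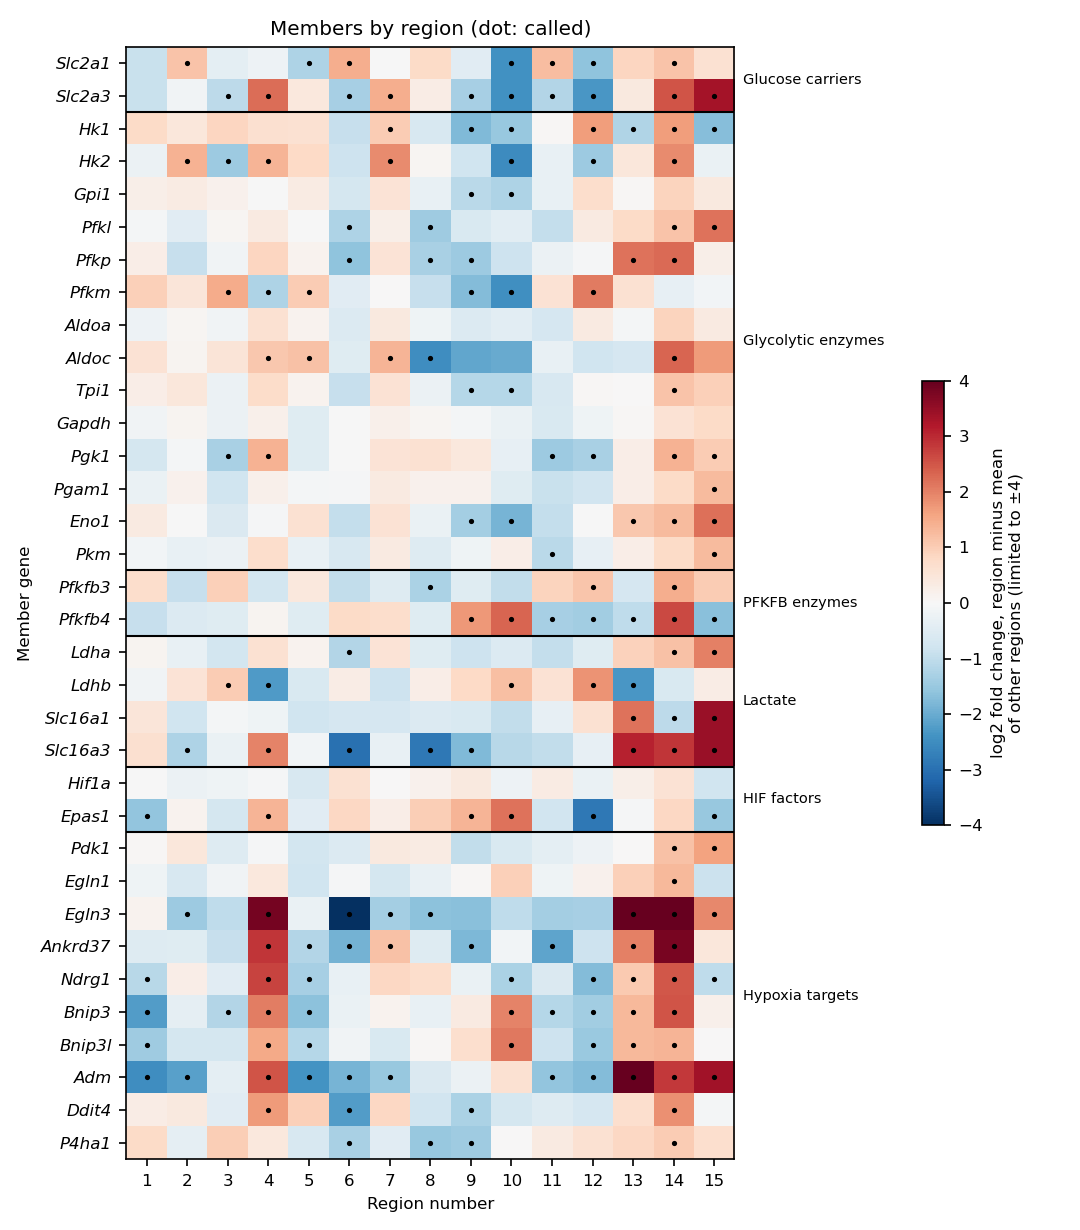
Log2 difference of each fitted member (rows, grouped by role) in each region (columns) from the mean of the other regions, with colours limited to 4 in size and dots on called values. Regions 4, 13 and 14 hold the deep red block of hypoxia targets, region 10 the blue column of glycolytic enzymes, and Aldoa, Gapdh and Hif1a have no dot.

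The 2 factor genes differed in how far they varied. Hif1a (ENSMUSG00000021109, chr12:73901375-73947530) was called in no region: its mean level ran from 62.4 CPM in region 15 to 146 CPM in region 6 (Mt4, Stra6, Mt2). Epas1 (ENSMUSG00000024140, chr17:86753700-86833410, coordinates here and below from GENCODE mouse release 21 on GRCm38) ran from 82.8 CPM in region 12 to 2061 CPM in region 10. In region 10, Epas1 stood at 2529, 1397 and 2258 CPM in replicates 1-2, 3 and 4. Within each library region 10 was the highest, and across libraries only the 1425 CPM of region 4 in replicate 1-2 exceeded its lowest value. The difference in region 10 was 2.16 (SE 0.11, adjusted p = 1.1e-20), against 1.37 in region 4 and 1.35 in region 9 (Sprr2h, Gpnmb, Psca), where pooled other spots as the reference gave 0.96. In region 12 the levels were 49.98, 114 and 84.3 CPM, below those of every other region in each library (-2.85, SE 0.20, adjusted p = 1.6e-15). Epas1 was also called lower in region 1 (Ifi27l2a, Spon2, Col6a2; -1.59) and in region 15 (-1.52).

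Among the hypoxia targets, Egln3 had the widest range. It encodes a prolyl hydroxylase that marks the alpha subunits for destruction and is itself induced by them. Egln3 (ENSMUSG00000035105, chr12:54178981-54203860) stood at 88.6 and 138 CPM in region 14, at 28.7, 41.8 and 60.6 CPM in region 13 and at 26.7, 21.4 and 72.4 CPM in region 4. Both sums of region 14 exceeded every other sum, and regions 4 and 13 overlapped each other. The differences were 5.29 (SE 0.25, adjusted p = 4.3e-21), 4.04 (SE 0.24, adjusted p = 5e-18) and 3.84 (SE 0.20, adjusted p = 4.6e-20). Region 6 had 1 Egln3 UMI in its 3 sums, and the mean of the other sums was 76.3 times as high (exact Poisson interval 13.7 to 3016, counting error of that 1 UMI only). Region 12 had 2 UMIs, with a ratio of 10.1 (interval 2.81 to 83.7) and no call. The lower call in region 6 (-4.08) was lost without replicate 4 (-2.43). Egln3 was also called lower in regions 2, 7 and 8. The call in region 2 was lost without replicate 1-2 or 4, and those in regions 7 and 8 without any 1 library. The higher call in region 15 rested on replicate 4: the levels there were 0 CPM in replicate 1-2 and 18.6 CPM in replicate 4, and the difference of 1.92 became -4.86 without replicate 4, a fitted value from a sum of 0 UMIs that sets no bound. Its relative Egln1, the main oxygen-sensing hydroxylase, was called in region 14 only among the 15 regions, with 92.6 and 75.3 CPM (1.30, SE 0.19, adjusted p = 8.7e-07). The differences of Egln1 in regions 10 and 13, 0.94 and 0.96, stayed under the minimum size.

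Ankrd37, a small ankyrin repeat protein known as a HIF target, was high in the same 3 regions. Ankrd37 (ENSMUSG00000050914, chr8:45996902-46005707) stood at 124 and 179.8 CPM in region 14, at 60.5, 73.4 and 90.8 CPM in region 4, and at 19.2, 40.03 and 58.4 CPM in region 13. The 3 ranges did not overlap, and the log2 differences were 3.79 (SE 0.24), 2.87 (SE 0.18) and 2.00 (SE 0.25), with adjusted p of 5e-17, 9.5e-18 and 6.2e-09. It was called lower in regions 5, 6, 9 and 11, and without replicate 4 the calls in regions 5 and 6 were lost (-0.95 and -1.11). A higher call in region 7 (Aldh1a3, Serpina3n, AW112010; 1.18) was lost without replicate 3 (0.82). Ndrg1, a stress-induced gene, stood at 559, 444 and 533 CPM in region 4 and at 433 and 496 CPM in region 14. No other region reached these levels, the next being region 13 at 127, 188 and 203 CPM. The log2 differences of Ndrg1 were 2.71 (SE 0.10, adjusted p = 1.2e-25) in region 4 and 2.49 (SE 0.13) in region 14. The call of Ndrg1 in region 13 (1.06, SE 0.13) was lost under 5 alternatives, the lowest value being 0.41 against pooled other spots. Those of the 5 that formed new clusters matched region 13 with a cluster that was also the best match of region 15.

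Bnip3 and Bnip3l encode related receptors that mark mitochondria for removal, and both were high in region 10 as well. Bnip3 (ENSMUSG00000078566, chr7:138890836-138909519) stood at 453 and 627 CPM in region 14, at 404, 301 and 459 CPM in region 4, at 417, 208 and 509.7 CPM in region 10, and at 225, 198 and 289.5 CPM in region 13. These 4 regions overlapped in part and lay above every sum of the other regions, the highest of which was 184 CPM in region 9. The differences were 2.53 (SE 0.16), 2.03 (SE 0.13), 1.98 (SE 0.14) and 1.29 (SE 0.16), the last falling under 1 with at least 5000 UMIs per spot (0.94), against pooled spots (0.94) and at resolution 0.3 (0.97). Bnip3 was lowest in region 1, at 21.6, 24.1 and 25.7 CPM (-2.24, SE 0.21), and low in region 5, at 20.1, 42.7 and 36.8 CPM (-1.64, SE 0.20). Bnip3l was highest in region 10, at 821, 453 and 794 CPM (2.12, SE 0.09, adjusted p = 2.8e-24). It was also higher in region 4 (1.5005), region 14 (1.37) and region 13 (1.30, or 0.95 with at least 5000 UMIs per spot), and lower in regions 1, 5 and 12. With at least 5000 UMIs per spot and at resolution 0.3, the cluster matched to region 13 was also the best match of region 15.

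Adm, which encodes the vasodilator peptide adrenomedullin, had its own leading region. Adm (ENSMUSG00000030790, chr7:110627661-110629820) stood at 266, 1695 and 909 CPM in region 13, the region with the highest trophoblast markers. Region 13 was highest within each library, and only its value in replicate 1-2 overlapped other sums (279.8 CPM in region 14 and 288 CPM in region 15, both in replicate 4). The log2 difference in region 13 was 5.66 (SE 0.15, adjusted p = 9.7e-31), the largest of any member in any region. In region 4 Adm stood at 25.5, 152 and 206 CPM (2.52, SE 0.18), in region 14 at 131 and 279.8 CPM (2.81, SE 0.25) and in region 15 at 59.5 and 288 CPM (3.36, SE 0.30). Adm was called lower in 7 regions, down to 1.44, 3.84 and 9.28 CPM in region 1 (-2.48, SE 0.36), and the call in region 12 was lost without replicate 1-2 or 4. In each region with a sum of replicate 1-2, that library had the lowest Adm level.

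Ddit4, P4ha1 and Pdk1 are the remaining targets. Ddit4, an inhibitor of the growth regulator mTORC1, stood at 67.4 and 72.3 CPM in region 14 (1.83, SE 0.17) and at 36.3, 61.7 and 65.3 CPM in region 4 (1.70, SE 0.11). It fell to 2.83, 4.45 and 5.43 CPM in region 6 (-2.24, SE 0.23) and was lower in region 9 (-1.27). P4ha1, a subunit of the collagen prolyl hydroxylase, was higher in region 14, at 35.2 and 33.8 CPM (1.03, SE 0.26, and 0.83 to 0.97 under 5 alternatives, among them 0.94 without replicate 3). It was called lower in regions 6, 8 and 9, the call in region 6 being lost without replicate 4 (-0.94). Pdk1, a kinase that shuts the pyruvate dehydrogenase complex, stood at 16.1 and 27.7 CPM in region 14 (1.17, SE 0.37) and at 17.9 and 29.8 CPM in region 15 (1.61, SE 0.43). Both Pdk1 calls were lost without replicate 4 (0.88 and 1.02), where a single sum stands for the region.

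**Figure D2:**
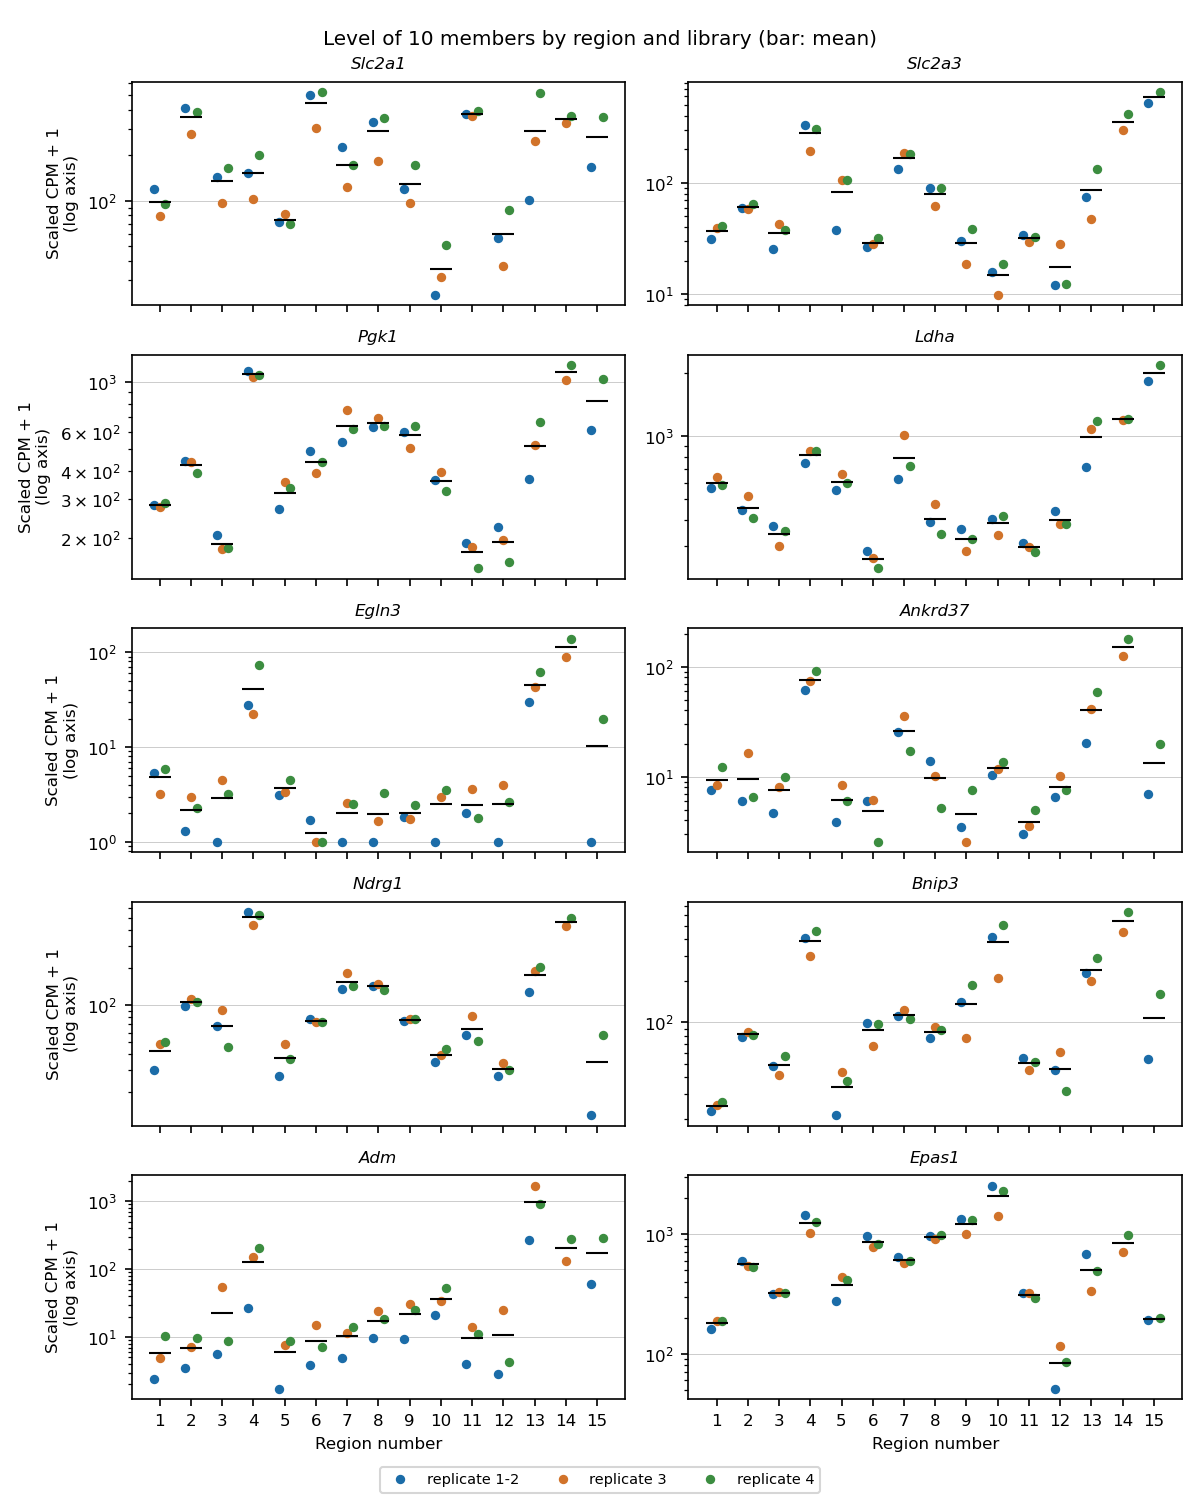
Scaled CPM plus 1 (log axis) of 10 members in each region (horizontal axis), with 1 point per library and a bar at the mean. Egln3 and Ankrd37 are highest in region 14, Ndrg1 in regions 4 and 14, Adm in region 13, Epas1 in region 10 and Slc2a3 and Ldha in region 15, while Slc2a1 is highest in region 6.

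Of the 11 hypoxia targets, the 10 that were fitted were called higher in region 14, where 11.9% of all genes were called higher. In region 4, 7 targets were higher and 0 lower (12.6% and 6.73% of all genes), and in region 13, 6 were higher and 0 lower (13.4% and 11.5%). Markers of several cell types moved with these regions, and their part in the levels of the targets was not tested. The neutrophil list had 3 of 3 fitted markers higher in regions 4 and 13 and 2 of 3 in region 14, with summed unscaled levels of 4794 to 5595, 1942 to 2463 and 2859 to 3613 CPM, while Mmp8 was at 0 in each, Ly6g at 0 in regions 4 and 14 and Retnlg at 0 in region 14. Maternal blood markers were higher in region 13 only among these 3 (5 of 5, summed 7975 to 9930 CPM, against 145 to 325 CPM in region 14). Pericyte markers were lower in regions 4 and 13 (5 of 7 each), and stromal collagen and matrix markers in 10 and 11 of 12.

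The promoters of 4 targets that were higher together in region 14 are shown because the factors are known to bind the core motif ACGTG or GCGTG. Each window runs from 250 bases before to 50 bases after the gene start in RefSeq (GRCm38.p6), at chr12:54203825-54204124 on the minus strand for Egln3, chr8:45999801-46000100 on the minus strand for Ankrd37, chr7:110627407-110627706 on the plus strand for Adm, and chr7:138909457-138909756 on the minus strand for Bnip3. Sequences are printed 5′ to 3′ in the direction of the gene, and capitals mark a motif on either strand, where overlapping matches run together.
Egln3: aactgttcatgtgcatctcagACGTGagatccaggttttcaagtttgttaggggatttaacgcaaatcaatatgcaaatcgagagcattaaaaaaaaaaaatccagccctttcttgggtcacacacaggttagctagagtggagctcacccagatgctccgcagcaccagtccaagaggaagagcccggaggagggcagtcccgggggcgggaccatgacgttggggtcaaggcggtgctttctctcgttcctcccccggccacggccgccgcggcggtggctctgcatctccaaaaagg
Ankrd37: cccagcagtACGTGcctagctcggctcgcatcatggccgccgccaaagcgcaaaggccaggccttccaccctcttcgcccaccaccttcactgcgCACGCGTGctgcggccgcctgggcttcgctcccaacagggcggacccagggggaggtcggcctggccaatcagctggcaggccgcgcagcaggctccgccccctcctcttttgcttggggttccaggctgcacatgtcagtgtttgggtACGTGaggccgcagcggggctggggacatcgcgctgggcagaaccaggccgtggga
Adm: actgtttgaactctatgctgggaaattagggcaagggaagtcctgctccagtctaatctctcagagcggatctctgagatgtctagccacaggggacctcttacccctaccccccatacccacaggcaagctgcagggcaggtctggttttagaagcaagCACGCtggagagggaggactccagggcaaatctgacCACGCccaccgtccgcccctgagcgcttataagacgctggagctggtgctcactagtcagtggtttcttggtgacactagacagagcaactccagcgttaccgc
Bnip3: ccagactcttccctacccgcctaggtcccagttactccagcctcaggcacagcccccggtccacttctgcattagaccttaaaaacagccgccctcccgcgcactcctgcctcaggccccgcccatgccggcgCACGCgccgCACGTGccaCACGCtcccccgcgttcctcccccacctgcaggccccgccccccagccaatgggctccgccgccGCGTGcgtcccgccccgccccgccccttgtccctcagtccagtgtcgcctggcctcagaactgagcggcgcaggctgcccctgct
A script found 1 match in the window of Egln3, 4 in that of Ankrd37, 2 in that of Adm and 5 in that of Bnip3. Of all 32851 promoter windows in the table, 43.8% held at least 1 match, as did at least 1 window of 66.2% of the 5155 fitted genes with a window. Of the members, 9 of 9 matched hypoxia targets and 19 of 21 matched glycolysis genes held 1. A match describes the letters and is not a binding site, and Adm, with 2 matches, and Bnip3, with 5, led in different regions.

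Turning to glucose uptake, the 2 carriers had different peaks. Slc2a1 encodes GLUT1, the carrier of most cell types, and Slc2a3 encodes GLUT3, a high-affinity carrier of neurons, white blood cells and the early conceptus. Slc2a1 (ENSMUSG00000028645, chr4:119108711-119137983) stood highest in region 6, at 497, 299.99 and 525 CPM (1.45, SE 0.16, adjusted p = 4.1e-10). Its neighbours in that order overlapped it: region 11 (Itga8, Spink8, Itm2a) had 374, 361 and 392 CPM and region 2 (Stmn2, Hmgn5, Ear2) 409.5, 273 and 386 CPM. Their differences of 1.24 and 1.14 became 0.95 and 0.96 against pooled other spots. Region 14 was also called higher for Slc2a1 (1.13, or 0.93 without replicate 3). Slc2a1 was lowest in region 10, at 22.8, 30.4 and 49.7 CPM (-2.42, SE 0.26, adjusted p = 1.5e-10), and lower in regions 12 (-1.61) and 5 (-1.23, or -0.98 without replicate 4). In region 13 its 3 libraries spread from 101 to 511 CPM and no call was made.

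Slc2a3 was highest in region 15, where embryo, yolk sac and trophoblast markers were higher. Slc2a3 (ENSMUSG00000003153, chr6:122727809-122801640) stood there at 518 and 662 CPM in replicates 1-2 and 4, in region 14 at 297 and 412 CPM, and in region 4 at 334, 193 and 308 CPM. Region 15 lay above every other sum, and regions 4 and 14 overlapped. The differences were 3.33 (SE 0.19, adjusted p = 2.9e-18), 2.53 (SE 0.18) and 2.22 (SE 0.14). Region 7, with 17 of 18 NK markers higher, was called higher too (1.45, or 0.93 against pooled spots). The lowest levels were in region 10, at 14.7, 8.82 and 17.6 CPM (-2.41, SE 0.30), and in region 12, at 11.1, 27.1 and 11.4 CPM (-2.31, SE 0.38). Slc2a3 was also called lower in regions 3, 6, 9 and 11, of which region 3 (Wfikkn2, Nppa, Tnni2; -1.06) was lost without replicate 1-2 (-0.89) or 4 (-0.98).

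Hexokinases trap glucose in the cell, and their 2 main forms differed by zone. Hk1 stood at 62.9, 66.1 and 63.2 CPM in region 12 (1.67, SE 0.20, adjusted p = 2.1e-09), and at 74.5 and 64.6 CPM in region 14 (1.66, SE 0.19). Hk2 stood at 28.4, 35.5 and 40.7 CPM in region 7 (1.89, SE 0.18, adjusted p = 1.5e-11) and at 29.2 and 50.7 CPM in region 14 (1.90, SE 0.29), and it was called higher in regions 2 and 4 (1.39 and 1.36, or 0.83 and 0.81 against pooled spots). Hk1 was also called higher in region 7 (1.01, or 0.79 without replicate 3) and lower in regions 9, 13 and 15, each lost without replicate 4 and region 13 also without replicate 3 (-0.88). Hk2 was called lower in region 3 (-1.45, or -0.17 without replicate 4) and in region 12, a call lost without any 1 library. Region 10 was low in both. Hk2 had 7 UMIs in that region, at 0, 2.94 and 2.52 CPM (-2.52, SE 0.48), and Hk1 stood at 4.02, 12.7 and 7.55 CPM (-1.52, SE 0.26), and both calls were lost without replicate 4 (-2.04 and -0.96).

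Phosphofructokinase commits sugar to glycolysis, and its 3 genes each led in another region. Pfkm, the muscle form, stood at 55.5, 30.1 and 47.0 CPM in region 12 (2.08, SE 0.25, adjusted p = 3.4e-09) and was higher in region 3 (1.47) and region 5 (1.03, under 1 with 8 alternatives). Pfkl, the liver form, stood at 101 and 161 CPM in region 15 (2.18, SE 0.20, adjusted p = 7.2e-12), above every other sum, and was higher in region 14 (1.13, SE 0.19). Pfkp, the platelet form, stood at 235, 89.6 and 158 CPM in region 13 (2.16, SE 0.16, adjusted p = 1.5e-15) and at 165 and 152 CPM in region 14 (2.27, SE 0.19), and these 2 regions overlapped. Pfkm was called lower in regions 4, 9 and 10, each lost without replicate 4, and Pfkl and Pfkp in regions 6 and 8 (Aif1l, Sfrp5, Slc25a33), with Pfkp also in region 9. The PFKFB enzymes set the activity of phosphofructokinase. Pfkfb4 stood at 70.4 and 98.4 CPM in region 14 (2.64, SE 0.26), at 92.5, 40.2 and 89.98 CPM in region 10 (2.34, SE 0.21) and at 62.3, 26.8 and 60.3 CPM in region 9 (1.73, SE 0.22), with overlapping ranges. Pfkfb4 and Ldhb were the 2 glycolysis members called higher in region 10. It was called lower in regions 11, 12, 13 and 15 on 6 to 29 UMIs, and the call in region 15 (-1.67) became 0.04 without replicate 4. Pfkfb3 was higher in region 14, at 18.1 and 16.9 CPM (1.46, SE 0.34), and in region 12 (1.12, no longer past the adjusted p threshold without replicate 1-2 or 4), and lower in region 8 (-1.25).

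Among the enzymes of the later steps, Gapdh was called in no region, with means from 1280.2 CPM in region 11 to 3222 CPM in region 14, nor was Aldoa, with 377 to 1149 CPM in the same 2 regions. Pgk1, an ATP-making step of the route, stood at 1116, 1052 and 1075 CPM in region 4 and at 1022 and 1188 CPM in region 14, which overlapped each other and the 1034 CPM of region 15 in replicate 4. Regions 4 and 14 were called (1.38, SE 0.10, adjusted p = 2.6e-15, and 1.40, SE 0.13). Region 15 was called too (1.01, or 0.99 without replicate 3 and 0.52 without replicate 4). Pgk1 was lower in regions 3, 11 and 12 (-1.31, -1.46 and -1.29). Eno1 stood at 167 and 757 CPM in region 15 (2.19, SE 0.13), at 354 and 399.7 CPM in region 14 (1.25, SE 0.12), and at 59.9, 354 and 368 CPM in region 13 (1.06, or 0.96 without replicate 4). Its level in replicate 1-2 was the lowest in each of the 14 regions summed in that library, and the fit compares regions within libraries. Eno1 was lowest in region 10, at 18.8, 48.0 and 48.4 CPM (-1.87, SE 0.15, adjusted p = 4.4e-14). A near-identical copy, Eno1b, has its own row in the files, with 27, 73 and 102 UMIs in the 3 libraries, and reads of the 2 may be divided between them. Pgam1 and Pkm were higher in region 15 (1.28, and 1.25 or 0.88 without replicate 4), and Tpi1 in region 14 (1.13). Gpi1 and Tpi1 were lower in regions 9 and 10 (-1.09 to -1.24), and Pkm in region 11 (-1.07). Of these, Gpi1 in region 9 was -0.97 without replicate 4, and Tpi1 in region 10 was -0.94 without centring within libraries. Pkm in region 11 was -0.997 with DESeq2 and -0.94 against pooled spots. Aldoc, a minor aldolase with 135 UMIs in all, reached 6.04 and 7.69 CPM in region 14 (2.32, SE 0.59). It was also called higher in regions 4, 5 and 7 and lower in region 8, which held 1 UMI. The calls in regions 4 and 8 were lost without any 1 library, the call in region 5 without replicate 1-2 or 3, and those in regions 4, 5, 7 and 14 against pooled spots.

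At the lactate end of the route, Ldha, the dehydrogenase subunit that favours lactate, was highest in region 15. It stood there at 1827 and 2177 CPM (2.03, SE 0.12, adjusted p = 5.1e-18), above every other sum, and at 1193 and 1211 CPM in region 14 (1.18, SE 0.12). The lowest mean was in region 6, at 284, 263 and 234 CPM (-1.16, SE 0.13). Ldhb, the subunit that favours pyruvate, was highest in region 12, at 318, 265 and 277 CPM (1.81, SE 0.14, adjusted p = 2.1e-14). In region 10 it stood at 236, 140.2 and 210.2 CPM (1.21, SE 0.13), a call lost with no scaling factors (0.55), and region 3 was called at 1.01 (0.98 without replicate 4). Ldhb was lowest in region 13, at 24.0, 10.4 and 24.7 CPM (-2.32, SE 0.22), and in region 4, at 22.3, 20.3 and 18.3 CPM (-2.28, SE 0.18), 2 regions that overlapped and lay below the others. Slc16a1 (MCT1) carries lactate in and out of cells, and stood at 173 and 191 CPM in region 15 (3.45, SE 0.18, adjusted p = 5.7e-20) and at 71.9, 107 and 79.4 CPM in region 13 (2.16, SE 0.13). No other region reached these levels. Slc16a3 (MCT4), the exporter of glycolytic cells, stood at 7.19, 37.4 and 59.5 CPM in region 13 (3.07, SE 0.22), at 37.2 and 39.97 CPM in region 14 (2.86, SE 0.30) and at 11.5, 14.1 and 28.9 CPM in region 4 (1.97, SE 0.21). In region 15 its 2 sums were 5.95 and 75.7 CPM, and the difference of 3.45 became 1.39 without replicate 4. Regions 6 and 8 had 4 Slc16a3 UMIs each (-2.99 and -2.87), and regions 2 and 9 were lower too. Slc16a1 was the 1 glycolysis member called lower in region 14 (-1.06, or -0.75 without replicate 3).

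Set side by side by zone, the 2 groups parted in both directions. The median difference of the 22 glycolysis members exceeded that of the 10 fitted hypoxia targets in 10 of 15 regions, and in 7 of these it did so in every library (regions 6, 8 and 11 were split), while the median of all genes stayed between -0.13 and 0.12. In region 4 the glycolysis median was 0.48 and the hypoxia median 1.86, and glycolysis minus hypoxia was -1.28, -1.36 and -1.30 in replicates 1-2, 3 and 4. Region 14 had medians of 1.16 and 2.16 (-0.74 and -0.97 in replicates 3 and 4), and region 13 of 0.27 and 1.17 (-1.59, -0.82 and -0.76). Both groups were thus raised in region 14, while hypoxia targets stood above glycolysis in each library of the 3 regions. The opposite order held in region 5, with medians of 0.13 and -0.96 (1.19, 1.02 and 1.26 by library), and in region 12, with -0.11 and -1.08 (1.48, 0.47 and 0.85). In region 10 glycolysis was low at -0.98 and hypoxia targets stood at -0.04 (-1.36, -0.85 and -0.91 by library). Region 15 had medians of 0.98 and 0.33 (1.07 in replicate 1-2 and 0.61 in replicate 4). These are medians over members without a test. Against pooled other spots the difference of medians shrank from -1.002 to -0.26 in region 14 and from -0.94 to -0.15 in region 10, and grew from 1.09 to 1.64 in region 5 and from 0.65 to 1.08 in region 15. It was 0.61 in region 12 without replicate 1-2 and 1.25 in region 15 without replicate 4. In region 13 it was -0.37 with at least 5000 UMIs per spot, where the cluster matched to region 13 was also the best match of region 15.

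**Figure D3:**
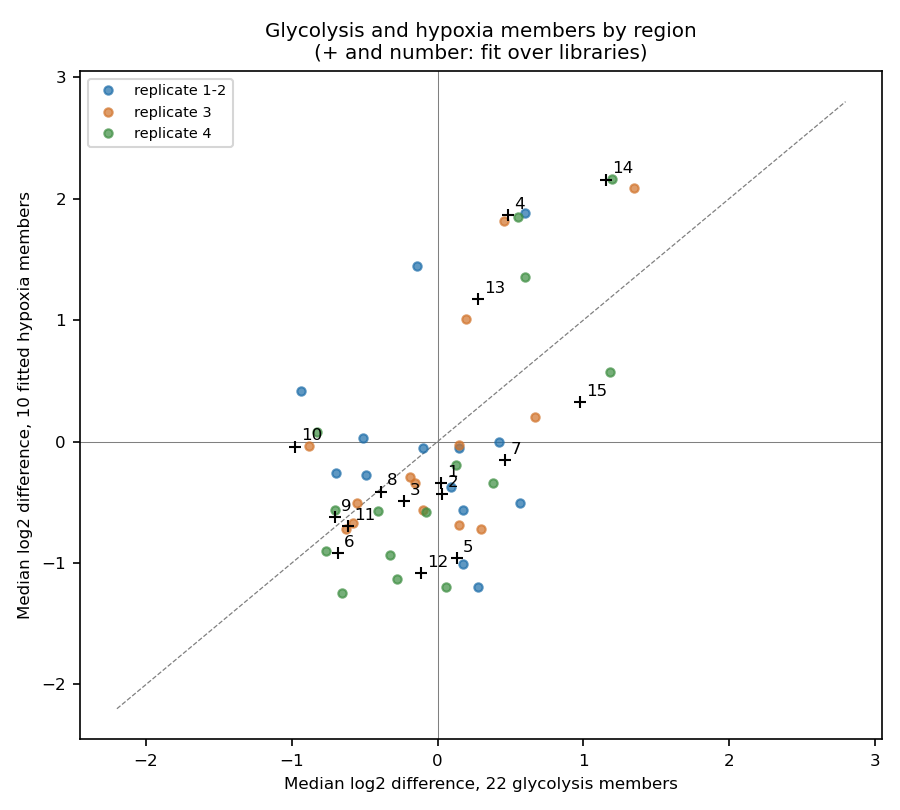
Median log2 difference of the 22 glycolysis members (horizontal) and of the 10 fitted hypoxia targets (vertical) in each region, with crosses and numbers for the fit over libraries and points for single libraries. The dashed line marks equal medians: regions 4, 10, 13 and 14 lie farthest above it, and regions 5, 12 and 15 farthest below.

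Counts of calls give the same picture by region. In region 14, 14 glycolysis members were higher and 1 lower (3.26% of all genes were lower), and in region 15, 9 were higher and 2 lower (14.3% and 14.7% of all genes), with 3 hypoxia targets higher and 1 lower. Region 10 had 2 glycolysis members higher and 8 lower (14.3% and 12.4% of all genes), with Bnip3 and Bnip3l higher and Ndrg1 lower among the targets. Region 9 had 1 higher and 8 lower, with 3 targets lower (8.5% and 9.91%), and region 6 had 1 higher and 5 lower, with 5 targets lower (6.49% and 5.06%). Region 5 had 2 glycolysis members higher and 1 lower, with 5 targets lower and 0 higher (11.6% and 7.49%). In region 12, 4 were higher and 5 lower, with 4 targets lower (15.5% and 11%), and in region 7, 4 were higher and 0 lower, with 1 target higher and 2 lower (8.47% and 5.3%). In region 4, 5 glycolysis members were higher and 2 lower (12.6% and 6.73% of all genes). In region 13, 4 were higher and 3 lower (13.4% and 11.5%). The other 5 regions follow. Region 1 had 4 targets lower (5.66% of all genes) and no glycolysis call, region 2 had 2 glycolysis members higher and 1 lower with 2 targets lower (7.04% and 4.27%), and region 3 had 2 higher and 3 lower with 1 target lower (14.8% and 4.57%). Region 8 had 0 higher and 5 lower with 2 targets lower (5.4% and 6.73%), and region 11 had 1 higher and 4 lower with 3 targets lower (12.7% and 2.63%). Summed over the 22 genes, glycolysis took 11568 and 16860 unscaled CPM in the 2 sums of region 15, while region 14 stood at 11512 and 12312 and region 10 at 2360, 3460 and 3223. Without replicate 4, region 15 keeps 1 sum of 25 spots, and the calls of Hk1, Pgk1, Pkm, Slc16a3 and Pdk1 there were lost. The differences of Pfkfb4 and Egln3 in region 15 turned sign. The lower target in region 15 was Ndrg1 (-1.001), a call lost with DESeq2 (-0.99) and with no scaling factors (-0.74), among other alternatives. Among the hypoxia calls in region 15, that of Adm was kept under every alternative that gave a value.

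Direct comparisons between the regions found by the marker lists used the same fit. Region 5 minus region 10 (NK list against decidual list) had 10 glycolysis members higher and 2 lower, where 22.9% of all genes were higher and 18.5% lower, with a median of 0.91 against 0.17 for all genes. Of the hypoxia targets, 1 was higher and 4 were lower, with a median of -0.80. Higher in region 5 were Pfkm (3.25, SE 0.42), Hk2 (3.09, SE 0.50), Slc2a3 (2.64, SE 0.33), Eno1 (2.31, SE 0.18) and Ddit4 (1.57, SE 0.23) among others. Bnip3 (-3.38, SE 0.24, adjusted p = 5e-16), Bnip3l (-3.03, SE 0.15), Adm (-2.79, SE 0.45), Pfkfb4 (-2.63, SE 0.29), Epas1 (-2.42, SE 0.19), Ldhb (-1.69, SE 0.19) and Egln1 (-1.62, SE 0.21) were lower. With no scaling factors 16 glycolysis members were higher and 1 lower. Proliferation markers moved with this contrast: 7 of 12 were higher in region 5 and 11 of 12 lower in region 10, and their part was not tested.

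Region 13 minus region 10 (trophoblast list against decidual list) had 12 glycolysis members higher and 2 lower (14.7% and 15.5% of all genes), and 5 hypoxia targets higher and 0 lower. Adm (4.72, SE 0.32, adjusted p = 5.4e-16), Egln3 (4.72, SE 0.48), Slc16a3 (3.90, SE 0.43), Slc2a1 (3.06, SE 0.31) and Slc16a1 (2.92, SE 0.24) were higher in region 13. Ldhb (-3.29, SE 0.25), Pfkfb4 (-3.14, SE 0.37) and Epas1 (-2.07, SE 0.19) were lower there. Region 15 minus region 13 (embryo list against trophoblast list) had 7 glycolysis members higher and 1 lower (8.48% and 11.4% of all genes), and 1 hypoxia target higher and 7 lower. Slc2a3 (2.73, SE 0.27, adjusted p = 5.1e-10) and Ldhb (2.45, SE 0.32) were higher in region 15, and Adm (-2.15, SE 0.35), Egln3 (-1.98, SE 0.46), Ndrg1 (-1.92, SE 0.29), Pfkp (-1.79, SE 0.34) and Epas1 (-1.36, SE 0.25) were lower. Without replicate 4, 2 glycolysis members were higher and 0 lower and 3 targets were lower, and the higher call of Pdk1 (1.49) was lost without any 1 library. In 5 of 6 other clusterings regions 13 and 15 had the same cluster as their best match, so this contrast could not be recomputed there. These contrasts share regions with each other, so their values are given side by side and no overlap is counted.

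Shares within pairs of related genes do not depend on scaling, and they moved with the regions. The absolute size of such a share is not read, since capture differs between genes. Ldhb made up 42.1%, 40.9% and 42.1% of the Ldha and Ldhb UMIs in region 12 (exact binomial intervals 37.2% to 47.0%, 34.3% to 47.8% and 37.3% to 47.1%). Its share was 2.91%, 2.32% and 2.11% in region 4 and 3.27%, 0.955% and 2.04% in region 13, so neither overlapped region 12. In region 10 it was 36.9%, 29.4% and 33.5%. Slc2a3 took 75.7% and 65.0% of the UMIs of the 2 glucose carriers in region 15 and 68.7%, 65.6% and 60.6% in region 4, against 4.87%, 8.35% and 5.58% in region 6. Slc16a3 took 77.1% and 76.5% of the 2 lactate carriers in region 14 (37 of 48 and 26 of 34 UMIs), while in region 13 its share ran from 9.09% to 42.9% over the libraries. Epas1 took 96.7%, 93.9% and 96.6% of the Hif1a and Epas1 UMIs in region 10, and 30.0%, 66.7% and 54.2% in region 12, where the libraries spread widely. Egln3 took 48.9% and 64.7% of the Egln1 and Egln3 UMIs in region 14, and 1 of 55, 0 of 63 and 0 of 85 UMIs in region 6 (upper limits 9.72%, 5.69% and 4.25%). Pfkp took 86.7%, 64.4% and 67.2% of the Pfkl and Pfkp UMIs in region 13 and 19.0% and 24.0% in region 15. Bnip3l ranged least of these 7 pairs, from a mean of 42.4% in region 14 to 74.3% in region 1. Intervals cover counting error only.

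**Figure D4:**
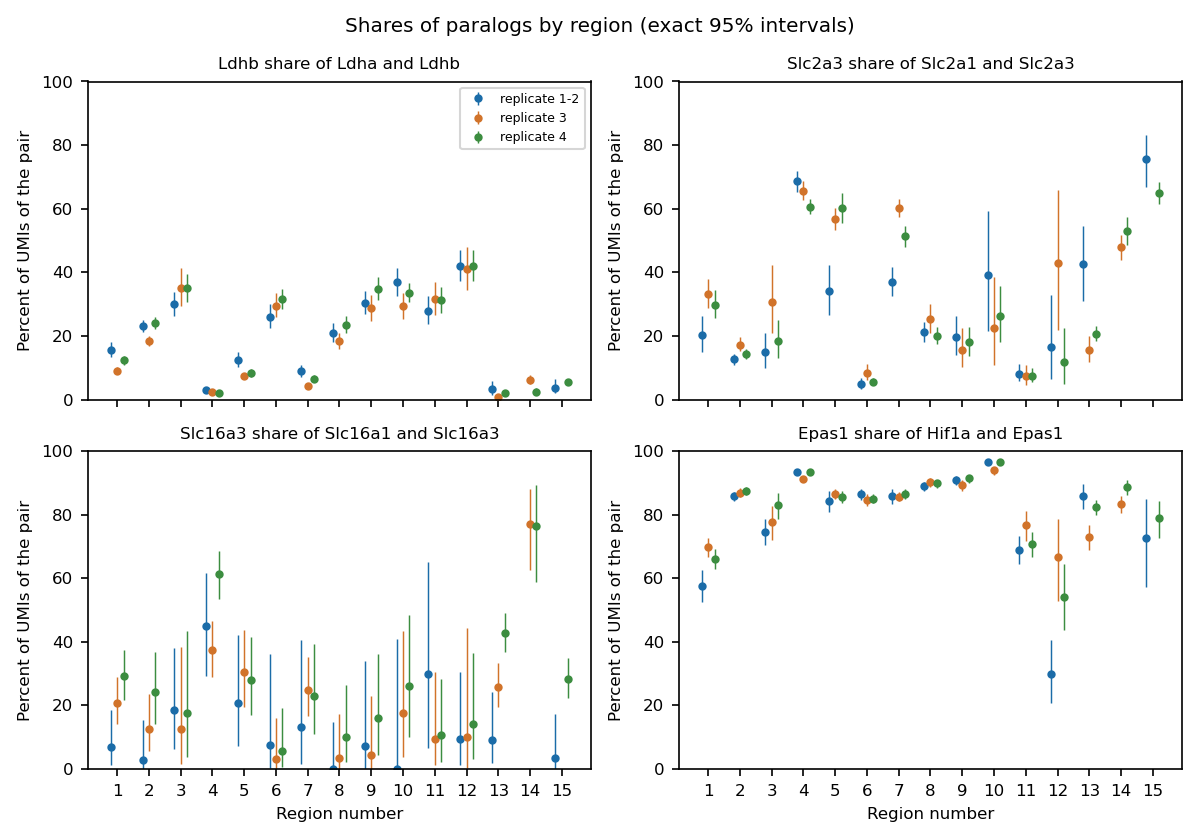
Share of the UMIs of a gene pair taken by the named member (percent, vertical axis) in each region (horizontal axis), with 1 point per library and exact 95% binomial intervals. Ldhb is near 42% in region 12 and under 4% in regions 4 and 13, Slc2a3 is highest in regions 15 and 4, Slc16a3 in region 14, and Epas1 falls in region 12.

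Other genes of the same pathways were taken from longer lists. Of 40 further hypoxia-response genes, 38 were fitted, of which 15 were called higher in region 4 and 2 lower (12.6% and 6.73% of all genes). Region 14 had 15 higher and 1 lower (11.9% and 3.26%), region 10 had 13 and 5 (14.3% and 12.4%), region 13 had 9 and 3 (13.4% and 11.5%), and region 15 had 4 and 10 (14.3% and 14.7%). The list's median was 0.76 in region 14, 0.60 in region 4, 0.41 in region 10, -0.03 in region 13 and -0.34 in region 15. Tmem45a, a membrane protein, was higher in region 4 (3.97, SE 0.16), region 13 (3.54, SE 0.18) and region 10 (3.42, SE 0.17). Hilpda, a lipid droplet protein, was higher in region 14 (3.08, SE 0.14), and the haem oxygenase Hmox1 in region 13 (4.06, SE 0.13). In region 4 Bhlhe40 (2.35, SE 0.09) and the Myc antagonist Mxi1 (2.33, SE 0.13) were higher. Vegfa, the main vessel growth factor, was higher in region 6 (1.45, SE 0.12), where Slc2a1 peaked and 5 hypoxia targets were lower, and Mif was higher in region 15 (2.46, SE 0.11).

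Of 34 further glycolysis genes, 21 were fitted, and at most 5 were called in 1 direction in any region described here. Region 12 had 109 of the 322 UMIs of Slc2a4, the insulin-responsive carrier GLUT4, and region 1 had 126. Region 15 had 32 of 55 UMIs of Slc2a2 (GLUT2) and 22 of 34 of Hkdc1. Ldhd, the dehydrogenase of D-lactate, was higher in region 9 (2.58, SE 0.12), region 6 (2.13, SE 0.12), region 8 (1.97, SE 0.12), region 4 (1.64, SE 0.12) and region 10 (1.03, SE 0.15). Of 33 genes of pyruvate, glycogen and pentose phosphate use, 30 were fitted, with 7 higher and 5 lower in region 12 (15.5% and 11% of all genes) and 5 and 6 in region 10 (14.3% and 12.4%). The glycogen phosphorylases Pygb (3.31, SE 0.13) and Pygm (4.75, SE 0.36) were higher in region 12. In region 10, Taldo1 (1.33, SE 0.08) and Rpia (1.82, SE 0.13), 2 enzymes of the pentose phosphate route, were higher, and Tkt (-1.24, SE 0.17), also of that route, was lower.

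Co-variation from spot to spot was computed only for members with a UMI in at least 20% of thinned spots in each library. The targets among them were Ndrg1, Bnip3 and Bnip3l, while Egln3, Ankrd37 and Adm were left out. Across 1605, 1078 and 1083 spots of replicates 1-2, 3 and 4, each thinned to 3000 UMIs (168, 2 and 3 shallower spots left out), the median Spearman rho of 45 pairs of glycolysis members was 0.084, 0.097 and 0.117. For 3 pairs of hypoxia targets it was 0.123, 0.129 and 0.144, and for 30 pairs across the groups -0.023, 0.036 and 0.032. Ranked by the lowest rho of the 3 libraries, Epas1 and Bnip3l led the 105 pairs computed, which include pairs with factor genes, at 0.201, 0.178 and 0.243. Spots of a library share its depth and sparse counts, and these values describe them without a test. The size of rho moved with the thinning. For glycolysis pairs its mean over libraries was 0.0995 at 3000 UMIs, 0.0455 at 1000 UMIs and 0.332 without thinning.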

How the data were processed

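The authors deposited raw UMI counts per gene and spot. Space Ranger 1.2.2 made them per the file headers, while Cell Ranger and build mm10 stand in the submitters' processing notes. Alignment settings and annotation version were not given in the sources used here. The 3 matrices hold whole libraries of 3 samples in 1 group, and no spot image was used.

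Counts were scaled to 10000 per spot, logged and centred within each library. They were then divided by the pooled standard deviation of the gene and limited to 10 in size. Spots were clustered (Leiden, resolution 0.6, 1500 variable genes, 20 components, 15 neighbours) on 16142 randomly chosen genes without 321 listed genes (scanpy 1.11.5, leidenalg 0.10.2). Every member was among the genes kept out. Doublets do not apply to spots. Raw counts were summed per library and region with at least 20 spots, in regions with at least 2 such libraries. Regions were compared with edgeR 4.0.16 (TMM, quasi-likelihood F test, library as a block, low-count filter). The block is used because each library supplies most regions, so sums of a library are paired by their source. Every p is adjusted over 6506 genes, and SE is the log2 difference divided by the square root of F. With 3 libraries the p-values rest on few samples, and replicate 1-2 mixes 2 biological replicates. Intervals for shares are exact binomial at 95% and cover counting error only. The fit was tested on simulated data. DESeq2 1.42.0 and the other alternatives are given in the closing section, and the one without scaling factors was added after seeing the data.

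The members, gene lists and tests were chosen with earlier results of these data known. Members called in a region were described with values per library, taking first those with the largest difference and the same sign in every library. Of the other pathway genes, up to 3 called per region and direction were open to naming, by smallest p. Promoter windows come from RefSeq (GRCm38.p6), and protein sequences were not used here.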

Additional observations from a re-analysis of the deposited data

Results flagged for a closer look

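The region with the most hypoxia calls, region 14, had 4 spots in replicate 1-2, too few for a sum, which entered no comparison. In these spots the hypoxia targets held 37 of 42440 UMIs, or 872 unscaled CPM (exact 95% interval 614 to 1201), above the 70.7 CPM that a count of 3 stands for. The 2 sums of region 14 in replicates 3 and 4 stood at 1898 and 2503 unscaled CPM for the same genes. Within replicate 1-2, the sums of regions 4, 13 and 10 stood at 1566, 1350 and 856 unscaled CPM, and that of region 7, the next, at 547. In that library the 4 spots were thus below regions 4 and 13 and near region 10. Slc2a3 held 17 UMIs in the 4 spots (401 CPM, interval 233 to 641) and Slc2a1 7 (165 CPM). The interval covers counting error only.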

How the results depend on the processing

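Of the 167 member calls, 153 were kept and 14 lost without the replicate block on libraries, and that fit gave 52 higher glycolysis calls over the regions. DESeq2 and relative log expression scaling each kept 158, no scaling factors (added after seeing the data) 155, no low-count filter 163 and pooled other spots as reference 143. Without replicates 1-2, 3 and 4, 154, 150 and 127 were kept. Without a minimum fold, glycolysis calls were 116 higher and 110 lower. Leaving out a library gave 29 to 51 lower glycolysis calls, the lowest without replicate 4. Lower hypoxia calls were 53 against pooled spots, and 11 with regions from the other genes, where the matched regions had 7. Leaving out a library moved Pfkfb4 in region 15 from -2.50 to 0.036 and Egln3 there from -4.86 to 2.15, and both turned sign without replicate 4. New clusterings matched 6 (other genes, resolution 0.3 or at least 5000 UMIs) to 14 (resolution 1.0) of the 15 regions. Region 15 was matched in 1 of 6, and in the other 5 its best match was the cluster that matched region 13. At resolution 0.3 and without centring within libraries, the best match of region 14 was the cluster that matched region 4. These clusterings did not separate regions 4 and 14.

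For region 5 minus region 10, no scaling factors gave 16 glycolysis members higher, 1 lower and 2 hypoxia targets higher. For region 13 minus region 10, no minimum fold gave 2 hypoxia targets lower. For region 15 minus region 13, glycolysis calls were 4 higher with no low-count filter and 12 with no minimum fold. Leaving out a library there gave 2 to 7 higher and 0 to 1 lower glycolysis calls, 0 higher hypoxia calls in each case, and 3 to 7 lower ones, against 4 with no scaling factors. The cause was not tested. The median rho of glycolysis pairs over libraries was 0.0995, but 0.0455 at 1000 UMIs and 0.332 without thinning. For hypoxia pairs it was 0.132, 0.0728 and 0.358, and between groups 0.0153, or 0.0979 without thinning.

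The all-gene median shifted by 0.18 in region 12 and 0.11 in region 3 under relative log expression scaling, with 1175 higher and 526 lower genes in region 12 against 1006 and 713. With no scaling factors it shifted by -0.64 in region 10 (496 higher and 1892 lower, against 932 and 804), -0.30 in region 9 (356 and 974, against 553 and 645), 0.27 in region 15 (1244 and 663, against 933 and 959), 0.25 in region 5 (1065 and 368, against 753 and 487) and 0.18 in region 2 (653 and 214, against 458 and 278). The shift was 0.21, 0.15 and -0.14 in regions 1, 7 and 4. No called member changed sign under either. Depth limits members at few UMIs, such as Car9, Aldoc and Pdk1.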

Other observations

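Over whole libraries, some members stood apart in replicate 1-2. Adm, the vasodilator peptide, stood at 13.6, 105 and 105 unscaled CPM in replicates 1-2, 3 and 4, and the glycolytic enzyme Eno1 at 50.1, 193 and 194. The ratio of replicate 1-2 to the mean of the other libraries was 0.130 for Adm, 0.260 for Eno1, 0.449 for Ddit4, 0.570 for Gapdh and 1.36 for Ldhb. In each of the 14 regions summed in replicate 1-2, that library had the lowest level of Adm, Eno1, Ddit4, Gapdh, Gpi1 and Aldoa. Slc16a3 stood at 2.66, 7.92 and 13.5 CPM and was lowest in replicate 1-2 in 9 of 14 regions. Replicate 1-2 also had the fewest UMIs per spot, and the part of depth or section in these values was not tested.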
